A study of Mus musculus with 6 samples.

Results

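Wide peaks of histone H3 phosphorylated at serine 10 (H3S10p) were examined in embryonic stem cells of the mouse strain 129P2/Ola. They were defined as peaks on chromosomes 1 to 19 that span at least 700 bp and have a peak score below 120. The rule found 860 of the 11067 peaks called in library 1 and 873 of the 12261 called in library 2. Both libraries were made by ChIP-seq, in which chromatin fragments are pulled down with an antibody, here against H3S10p, and sequenced. They came from cells held for 20 hours in aphidicolin, which blocks replicative DNA polymerases, and released for 3 hours. The cells carried no labelled genetic change, and both libraries belong to the same group. The labels do not say whether they came from separate cultures, so the spread between them may be technical. The other samples of the series, RNA libraries of untreated cells and of cells treated with ZM-447439, an inhibitor of Aurora kinases, do not enter here.

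H3S10p is placed mainly by Aurora B, the kinase of the chromosomal passenger complex. In late G2 it starts at pericentric heterochromatin and then spreads over the condensing chromosomes, and during interphase it also marks a small set of induced genes. A peak is a stretch of the genome where a caller, here MACS, found more reads than its model allows by chance. Its width therefore reflects how far the pile of reads extends as well as how the caller drew the borders.

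Width and score chose these regions, so both are given as a description. Wide peaks made up 7.86% of the autosomal peaks in library 1 (860 of 10935) and 7.20% in library 2 (873 of 12123), and they held 18.1% and 17.2% of the bases called. Their median width was 811.5 bp in library 1 and 814 bp in library 2, with the middle 50% between 748 and 927 bp and between 748 and 934 bp. Narrower peaks of score below 120, 9947 in library 1 and 11079 in library 2, had medians of 300 and 277 bp. The wide class was mostly made of peaks not far above its limit, since 152 and 155 reached 1000 bp and only 11 and 9 reached 1500 bp.

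Nothing separated the wide peaks from their neighbours in width. The 10 bp from the limit upwards held 47 peaks of library 1 and 62 of library 2, and the 10 bp below it held 54 and 47. Peak scores, which the authors deposited on a scale that is not named, had medians of 66.9 and 68.4 among wide peaks and 65.6 and 66.2 among narrower ones. The highest score among wide peaks was 119.45 in library 1 and 119.75 in library 2. The lowest score among the 15 and 18 peaks of at least 700 bp that the score limit left out was 121.3 and 121.29.

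The other library did not choose a peak, so recurrence could be read there. A peak was counted as recurring when it had at least 1 bp in common with any peak called in the other library. In library 1, 512 of 860 wide peaks recurred (59.5%, 95% Wilson interval 56.2 to 62.8%), against 32.9% of narrower peaks (32.0 to 33.9%) and a background of 35.3% over all autosomal peaks. In library 2, 478 of 873 recurred (54.8%, 51.4 to 58.0%), against 29.7% (28.9 to 30.6%) and a background of 31.8%. Averaged over the libraries, 57.1 ± 3.38% of wide peaks and 31.3 ± 2.28% of narrower peaks recurred (mean ± SD, n = 2 libraries). The 2 values behind each mean come from the same overlaps read from either list, so they are not independent measurements. The wide peaks recurred more often on all 19 chromosomes in both libraries, by 16.3 to 36.5 percentage points in library 1 and 8.0 to 40.9 in library 2. No test over samples exists for this difference, because there is only one group of libraries. The intervals describe counting error alone, and peaks close to each other may not be independent.

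The gain in recurrence with width came below the limit of 700 bp and levelled off above it. Peaks of 600 to under 700 bp already recurred at 57.5% in library 1 (53.6 to 61.4%) and 53.5% in library 2 (49.3 to 57.5%). Peaks of 700 to under 800 bp followed at 59.8% and 56.0%, those of 800 to under 1000 bp at 61.5% and 52.2%, and those of at least 1000 bp at 54.6% (46.7 to 62.3%) and 56.8% (48.9 to 64.3%). The wide peaks exceeded the class of 600 to under 700 bp by 2.0 percentage points in library 1 and 1.30 in library 2, well inside the overlap of their intervals.

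A long interval meets another one more easily, so the midpoint was also asked for. By this rule 405 wide peaks of library 1 (47.1%, 43.8 to 50.4%; background 31.1%) and 369 of library 2 (42.3%, 39.0 to 45.6%; background 28.4%) had their midpoint inside a peak of the other library. Narrower peaks did so at 29.4% and 27.0%. In peaks of 600 to under 700 bp the share was 49.1% and 44.1%. The wide class minus that class was -2.02 and -1.80 percentage points, again with overlapping intervals. Among peaks of at least 1000 bp it dropped to 36.2% in library 1 (29.0 to 44.1%) and 36.1% in library 2 (29.0 to 43.9%). The widest calls thus kept their rate of overlap but were met at their centre less often than peaks of 700 to under 800 bp, at 51.0% (46.1 to 56.0%) and 45.02% (40.2 to 49.9%). In library 2 the intervals of these classes overlap.

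**Figure D1:**
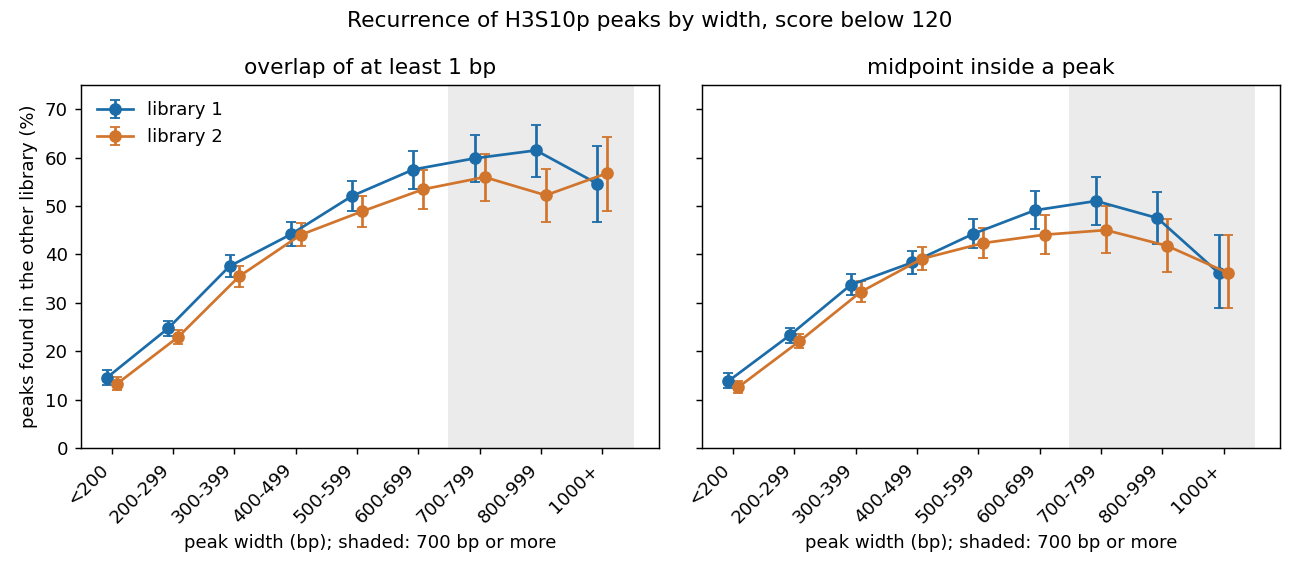
Share of H3S10p peaks found in the other library (y axis, percent) by peak width (x axis, bp), by overlap of at least 1 bp (left) and by midpoint (right), with points for each library and bars for 95% Wilson intervals. Both shares climb up to 600 to under 700 bp, and the midpoint share falls to 36.2% and 36.1% in peaks of at least 1000 bp.

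Where a wide peak had a partner in the other library, that partner was mostly narrower. Of the library 1 wide peaks, 348 (40.5%) had no partner, 53 met a peak under 300 bp, 122 one of 300 to under 500 bp, 149 one of 500 to under 700 bp and 188 (21.9%, 19.2 to 24.7%) one of at least 700 bp. In library 2 these numbers were 395 (45.2%), 43, 103, 147 and 185 (21.2%, 18.6 to 24.0%). Over all autosomal peaks, 4.55% in library 1 and 4.42% in library 2 met a partner of at least 700 bp, and among peaks of 600 to under 700 bp 11.7% and 12.7% did. Of the wide peaks with a partner, 419 of 512 in library 1 and 386 of 478 in library 2 were wider than it. Because the rule chose the wide peaks by their own width, this last count is partly set by that choice and is given as a description.

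Partner width nevertheless followed the width of the chosen peak. The median partner spanned 609.5 bp under library 1 wide peaks and 618 bp under those of library 2, against 516 and 540 bp under peaks of 600 to under 700 bp and 391 and 408 bp under all narrower peaks. The highest medians, 685 and 647 bp, were found under peaks of at least 1000 bp. Partner scores had medians of 67.8 and 64.3, beside 67.4 and 66.1 for the partners of narrower peaks.

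A wide peak was rarely the union of several calls of the other library. Only 8 of 860 wide peaks in library 1 (0.93%) and 1 of 873 in library 2 (0.11%) overlapped 2 or more partners. All narrower peaks did so at 0.06% and 0.07%, and peaks of 600 to under 700 bp at 0.81% and 0%. Of the wide peaks with a single partner, 223 of 504 (44.2%) and 206 of 477 (43.2%) enclosed it completely. Midpoints of such pairs lay a median of 120 bp apart in library 1 and 127 bp in library 2, and 190.0 and 235 bp apart when the wide peak spanned at least 1000 bp. In peaks of 600 to under 700 bp these distances were 84.5 and 93.0 bp, and 36.9% and 32.5% of those with a single partner enclosed it. Because the rule chose the wide peaks by width, these shares and distances are partly set by that choice. They are given as a description.

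Wide peaks without a partner were seldom near misses. A peak of the other library lay within 1 kb of 22 of the 348 in library 1 (6.32%, 4.21 to 9.39%) and of 19 of the 395 in library 2 (4.81%, 3.10 to 7.39%). Narrower peaks without a partner had one at 6.45% and 5.68%. The median distance to the nearest peak of the other library was 30.4 and 36.9 kb for the wide peaks, and 24.9 and 28.1 kb for the narrower ones. For peaks of 600 to under 700 bp without a partner it was 35.5 and 33.1 kb, above the wide peaks in library 1 and below them in library 2.

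Altogether 182 pairs were wide and below the score limit in both libraries. They held 21.2% of the library 1 set (18.6 to 24.0%) and 20.8% of the library 2 set (18.3 to 23.7%), and every autosome carried at least 1. Chromosome 1 held 21 of the pairs, chromosome 11 held 18 and chromosome 18 held 1. These chromosomes also differed in their number of wide peaks, with 62, 79 and 17 in library 1 and 61, 71 and 23 in library 2. Within the pairs a median of 98.7% of the narrower peak was shared. Borders were less exact, with a median offset of 82.0 bp at the start and 75.5 bp at the end. Both borders agreed within 50 bp in 30 pairs (16.5%), and at least 1 border differed by over 300 bp in 42. Across the 182 pairs, widths had a Spearman correlation of 0.20 and scores one of 0.08. These are descriptions across regions, over a range that the width limit cuts off.

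**Figure D2:**
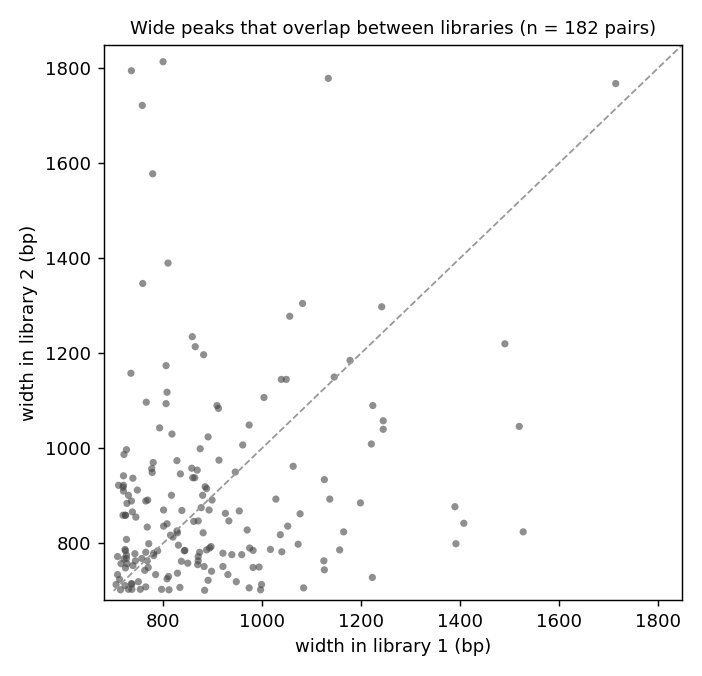
Width of the 182 pairs of overlapping wide peaks in library 1 (x axis, bp) and library 2 (y axis, bp), 1 point per pair, with the line of equal width dashed. Most points lie below 1000 bp on both axes and scatter widely about the line, and 16 pairs reach at least 1000 bp in both libraries.

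Of these pairs, the one with the largest smaller width was on chromosome 11. It ran from 53291929 to 53293643 in library 1 (1715 bp, score 73.9) and from 53291971 to 53293738 in library 2 (1768 bp, score 81.4), on mouse build mm9 with positions counted from 1. Its nearest neighbour was 20.8 kb away in library 1 and 14.4 kb in library 2. Both borders differed by under 100 bp, so this long region was outlined almost alike in both libraries.

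The next was on chromosome 7, from 25217077 to 25218318 in library 1 (1242 bp) and 25217141 to 25218438 in library 2 (1298 bp), in a region with 21 other peaks within 500 kb in each library. On chromosome 12 a pair shared only 574 bp: it spanned 109153485 to 109154975 in library 1 and 109154402 to 109155621 in library 2, with starts 917 bp apart. The pair on chromosome 6, at 141197761 to 141198938 and 141197978 to 141199162, was isolated, with no other peak within 500 kb in either library and the nearest at 824 and 503 kb. The pair on chromosome 9, at 3001994 to 3003139 and 3001994 to 3003143, started at the same base in both libraries and ended 4 bp apart. It lay next to the start of the assembled sequence, 0.428 kb from another peak. Across these 5 regions the number of other peaks within 500 kb ran from 0 to 26 in library 1 and from 0 to 21 in library 2.

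The widest members of each library differed in how well they were matched. In library 1 the widest was on chromosome 9 from 3025187 to 3027926 (2740 bp, score 119.45). Library 2 called the same 2740 bp there, but with a score of 274, above the limit, so the region counts as wide in library 1 only. The next, on chromosome 9 from 3018225 to 3019949 (1725 bp), met a library 2 peak of 1276 bp and score 207. The third, on chromosome 1 from 74996955 to 74998672 (1718 bp, score 67.0), had no partner.

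In library 2 the widest was on chromosome 4 from 3016565 to 3018378 (1814 bp, score 72.8), of which 44.1% was covered by a library 1 peak of 800 bp. Chromosome 12 from 81858629 to 81860423 (1795 bp, score 61.9) met a library 1 peak of 736 bp that covered 41.0%. Chromosome 6 from 115943459 to 115945237 (1779 bp, score 100.4) met one of 1134 bp that covered 63.7%. Each of these 3 had a shorter partner, while the library 1 set held 1 exact match and 1 region without any.

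Among the wide peaks, recurrence by overlap of at least 1 bp differed with score more than with width. In library 1 the lowest 25% by score recurred at 50.2% (43.6 to 56.9%) and the highest 25% at 69.3% (62.8 to 75.1%). In library 2 the shares were 46.3% (39.8 to 53.0%) and 65.8% (59.2 to 71.7%). From the narrowest to the widest 25%, they were 59.5% and 55.3% in library 1, and 55.5% and 54.3% in library 2, with intervals that overlap. By midpoint, the narrowest and widest 25% did differ in library 1, at 51.6% (44.98 to 58.2%) and 38.1% (31.9 to 44.8%), while in library 2 they stood at 43.1% (36.7 to 49.8%) and 37.0% (30.9 to 43.6%), with intervals that overlap. The midpoint share of the lowest and highest 25% by score was 39.1% and 59.5% in library 1, and 36.2% and 54.3% in library 2. Recurring wide peaks had a median score of 69.4 in library 1 and 70.1 in library 2, against 64.0 and 65.8 for those without a partner, while their median widths were 809 and 815.5 bp against 816 and 813 bp.

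**Figure D3:**
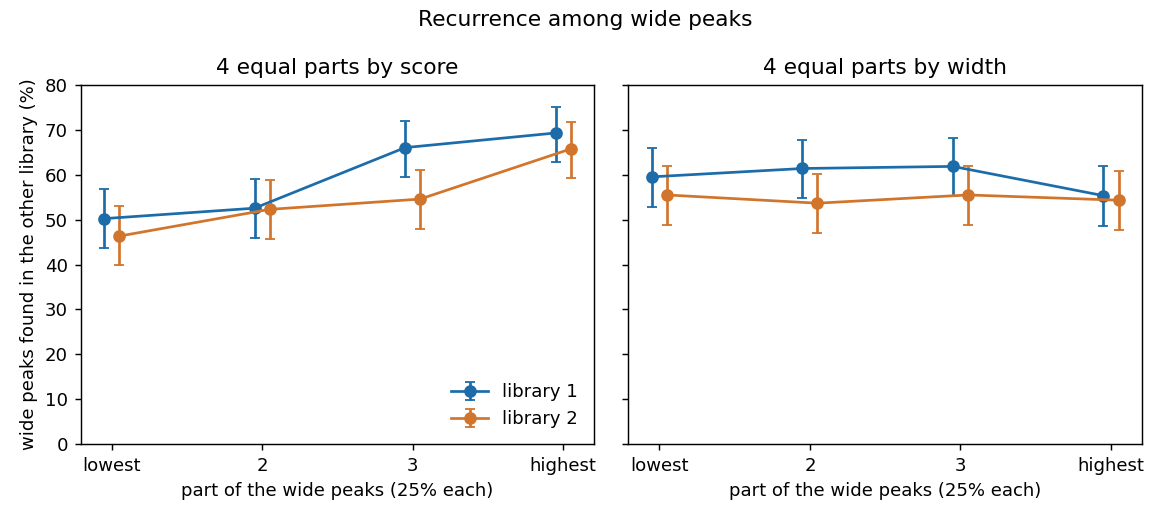
Share of wide peaks found in the other library by overlap of at least 1 bp (y axis, percent) in 4 equal parts of the wide peaks, from the lowest to the highest 25%, ordered by score (left) and by width (right), with points for each library and bars for 95% Wilson intervals. The share is highest in the highest 25% by score, at 69.3% and 65.8%, and shows no such order by width.

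Wide peaks were found on every autosome in both libraries. They made up 5.42 to 12.6% of a chromosome's peaks in library 1 and 5.91 to 9.23% in library 2. The highest mean shares were on chromosomes 3 (10.3 ± 3.35%, mean ± SD, n = 2 libraries), 14 (9.44 ± 0.29%) and 12 (8.96 ± 1.71%), and the lowest on 17 (5.74 ± 0.24%), 4 (5.80 ± 0.52%) and 15 (6.05 ± 0.46%). Chromosome 3 was high only in library 1, where 55 of its peaks were wide (12.6%, 9.84 to 16.1%). In library 2 it had 38 (7.90%, 5.81 to 10.7%). The interval excluded the autosomal share for 3 chromosomes in library 1, namely 3, 4 and 17, and for 0 in library 2. Across the 19 chromosomes the shares had a Pearson correlation of 0.54 and a Spearman correlation of 0.54 between the libraries, given as a description.

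**Figure D4:**
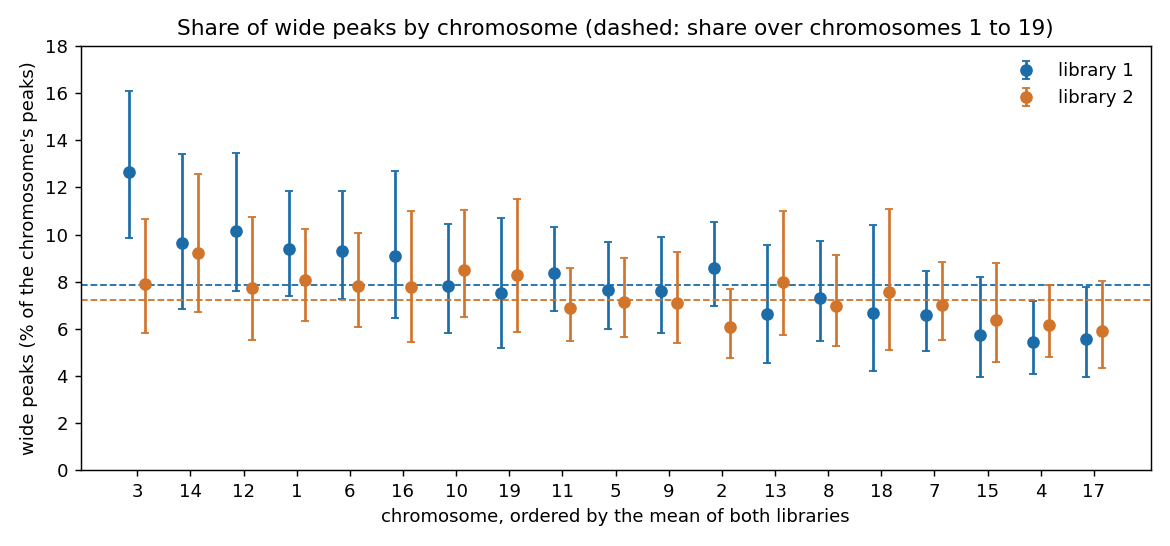
Wide peaks as a percentage of each chromosome's peaks (y axis) for the 19 autosomes (x axis, ordered by the mean of the libraries), with points for each library, bars for 95% Wilson intervals and dashed lines for the share over all autosomes. Chromosome 3 stands at 12.6% in library 1 and 7.90% in library 2, and chromosomes 17, 4 and 15 are low in both.

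Along the chromosomes the differences were small. With the span from 3 Mb to the last called base cut into 3 equal parts, wide peaks made up 7.63%, 8.98% and 7.26% of the peaks from the centromeric to the distal part in library 1, and 6.95%, 7.80% and 6.95% in library 2. The middle part was the highest in both, by 1.58 and 0.85 percentage points over the rest. All 3 intervals overlap in library 2, where they run from 6.14 to 7.85%, 6.97 to 8.72% and 6.28 to 7.68%. In library 1 the middle part had an interval of 8.04 to 10.0% and the distal part one of 6.55 to 8.04%. Set against the first and last 10 Mb instead, the rest of the chromosome gave a difference of -0.14 points in library 1 and 1.94 in library 2, so the sign in library 1 depended on how the chromosome was divided.

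The libraries differed at the distal end. The last 10 Mb held 66 wide peaks in library 2 (7.56%, 5.99 to 9.51%), against 11.8% of narrower peaks (11.2 to 12.4%). In library 1 it held 97 (11.3%, 9.33 to 13.6%), against 11.7%. Of the peaks of 600 to under 700 bp, 9.72% (7.63 to 12.3%) in library 1 and 9.56% (7.40 to 12.3%) in library 2 lay there. These intervals overlap those of the wide peaks in both libraries. The share of wide peaks in library 2 was thus below both classes, but its interval stood apart only from that of all narrower peaks. In library 1 the interval overlapped both. The difference between the libraries was not tested.

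The centromere of a mouse chromosome sits at its first end, where most of the satellite repeats are left out of the assembly. Whether the assembled sequence under the peaks there holds satellite repeats was not analysed. The first 0.2 Mb of assembled sequence held 7 wide peaks in library 1 (0.81%, 0.39 to 1.67%) and 5 in library 2 (0.57%, 0.25 to 1.33%), against 15 (0.15%, 0.091 to 0.25%) and 13 (0.12%, 0.069 to 0.20%) of the narrower ones. In library 1, 4 of the 7 were on chromosome 9, 2 on chromosome 11 and 1 on chromosome 4. In library 2, 2 were on chromosome 9 and 1 each on chromosomes 4, 11 and 17. All 7 in library 1 and 4 of the 5 in library 2 had a partner. The same share is not given for the narrower peaks there, so these counts have no background and are a description only. The first 10 Mb held 7.09% and 6.30% of the wide peaks and 6.32% and 6.21% of the narrower ones, so the higher share was seen only next to the start and rests on few peaks. Of the peaks of 600 to under 700 bp, the first 0.2 Mb held 1 in library 1 (0.16%, 0.029 to 0.91%) and 2 in library 2 (0.35%, 0.097 to 1.28%). These intervals overlap those of the wide peaks, so a higher share than in peaks of similar width was not shown. Without chromosome 9, added after seeing the data, the first 0.2 Mb held 3 wide peaks in each library (0.37%, 0.13 to 1.08%, and 0.36%, 0.12 to 1.06%) and 13 narrower ones in each (0.14%, 0.081 to 0.24%, and 0.12%, 0.073 to 0.21%), with intervals that overlap.

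Wide peaks had slightly fewer close neighbours than narrower peaks, with distance taken from edge to edge. Another peak of the same library lay within 10 kb of 160 wide peaks in library 1 (18.6%, 16.2 to 21.3%; background 22.1%) and of 162 in library 2 (18.6%, 16.1 to 21.3%; background 24.7%). Narrower peaks had such a neighbour at 22.4% (21.6 to 23.2%) and 25.2% (24.4 to 26.0%). The wide peaks were lower on 13 of 19 chromosomes in library 1 and on 16 of 19 in library 2. Median gaps were 41.0 and 36.2 kb for wide peaks and 31.9 and 27.7 kb for narrower ones. Neighbours within 1 kb were rare, at 5 wide peaks in library 1 (0.58%) and 9 in library 2 (1.03%), against 1.81% and 2.55% of narrower peaks.

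The share with a close neighbour was highest in the narrowest calls. Peaks under 200 bp had a neighbour within 10 kb at 27.7% in library 1 (25.8 to 29.8%) and 31.5% in library 2 (29.8 to 33.3%), and those of 200 to under 300 bp at 23.4% and 26.4%. Peaks of 600 to under 700 bp stood at 18.3% (15.5 to 21.6%) and 17.3% (14.4 to 20.7%), no higher than the wide peaks. Relative to that class, the wide peaks were higher by 0.29 percentage points in library 1 and 1.21 in library 2. On the scale of 500 kb either side, wide peaks had a mean of 10.8 and 12.0 other peaks of the same library around them, and narrower peaks 11.3 and 12.5. Counted in the other library, the means were 12.5 and 11.5 for wide peaks and 12.9 and 11.6 for narrower ones.

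**Figure D5:**
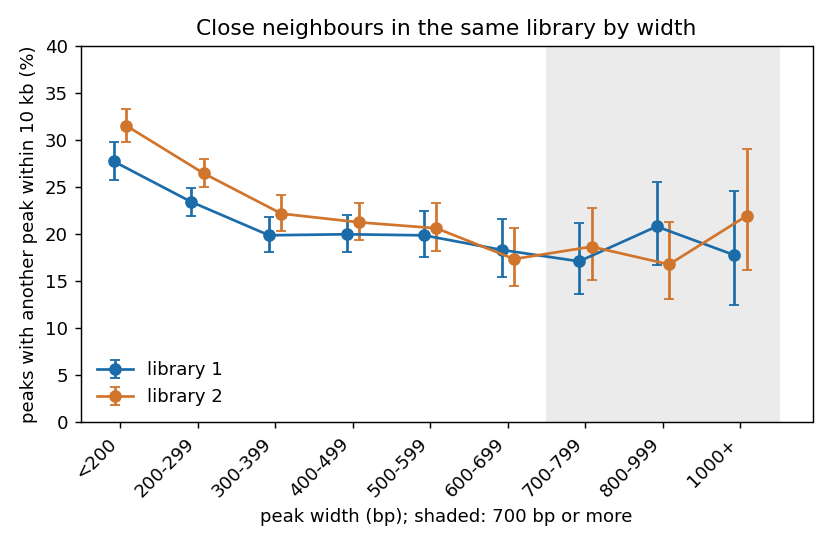
Share of peaks with another peak of the same library within 10 kb (y axis, percent) by peak width (x axis, bp), with points for each library and bars for 95% Wilson intervals. The share falls from 27.7% and 31.5% in peaks under 200 bp to 18.3% and 17.3% at 600 to under 700 bp and shows no further order in wider peaks.

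A wide peak seldom lay close to another wide peak, and seldom close to a narrower one. Another wide peak lay within 10 kb of 20 wide peaks in library 1 (2.33%, 1.51 to 3.56%) and 12 in library 2 (1.37%, 0.79 to 2.39%), while 1.58% and 1.45% of narrower peaks had a wide peak that close. Within 50 kb the shares were 11.05% (9.12 to 13.3%) and 10.1% (8.25 to 12.3%) for wide peaks and 9.0% (8.45 to 9.58%) and 8.67% (8.16 to 9.20%) for narrower ones. The intervals overlap at both distances. Peaks of 600 to under 700 bp had a wide peak within 10 kb at 0.97% (0.45 to 2.11%) and 0.88% (0.38 to 2.05%). Within 50 kb they had one at 8.75% (6.77 to 11.2%) and 8.14% (6.16 to 10.7%). These intervals also overlap those of the wide peaks.

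Joining wide peaks with gaps of at most 50 kb gave 4 groups of 3 or more in library 1 and 6 in library 2. The places named here were chosen after their values were seen. One place was found in both libraries, on chromosome 10, with 3 wide peaks from 80795194 to 80827127 in library 1 and 4 from 80719972 to 80827204 in library 2. All 4 of the latter and 2 of the 3 former had a partner. At the start of chromosome 9, library 1 had 4 wide peaks from 3001994 to 3027926, all with a partner. Each partner spanned at least 700 bp, but only 2 counted as wide peaks of library 2. The others, of 1276 and 2740 bp, had scores of 207 and 274, above the limit. The score limit thus kept this place from being a group of 3 or more in library 2. In contrast, 3 wide peaks of library 2 on chromosome 11 from 59919014 to 59989909 faced 0 library 1 peaks over that whole stretch.

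The libraries were also compared in windows of 1 Mb. Library 1 had at least 1 wide peak in 607 windows and library 2 in 617, out of 2126 with any peak. Of these, 322 were common to both, or 53.0% and 52.2% of each set. The same share was not computed for windows with narrower peaks or with any peak. It therefore has no background here and is given as a description. The window with the most wide peaks on average was chromosome 19 from 5000001 to 6000000, where 4 of 25 peaks in library 1 and 9 of 32 in library 2 were wide. Chromosome 10 from 80000001 to 81000000 followed with 6 of 47 and 6 of 45.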

How the data were processed

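The authors ran MACS on either ChIP library alone, per the file headers, and its version, threshold and control are not given in the sources. Bowtie and the mouse build mm9 are named in the submitters' processing notes, and read depth is unknown. The score of a peak is the caller's own value, deposited without a named scale, used only to filter and rank peaks within its own list. Because no input library was analysed here, it was not tested whether a peak reflects enrichment of H3S10p.

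Width is end minus start. Wide peaks (at least 700 bp, score below 120, chromosomes 1 to 19) were compared with peaks under 700 bp of score below 120 in the same library. Shares have 95% Wilson intervals. Recurrence was read in the other library, gaps from edge to edge. The members, lists and tests were chosen with earlier results of these data known. Regions were named by rule: the 5 pairs wide in both libraries with the largest smaller width, the widest 3 wide peaks of each library, and the 3 chromosomes with the highest and the 3 with the lowest share. Alternatives changed the width and score limits, the overlap rule, the comparison class, the distances and the library. No genome or annotation on mm9 was used, so genes, repeats and sequences at the regions, and markers of the cell type, were not analysed here. The calculations were tested on simulated lists and used Python 3.11.15, NumPy 2.4.6, pandas 2.3.3, SciPy 1.17.1 and matplotlib 3.10.9.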

Additional observations from a re-analysis of the deposited data

Results flagged for a closer look

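Outside the autosomes, peaks of the same width and score range were called on chromosome X, which no comparison above used. Library 1 had 5 of them and library 2 had 6, each above the limit of 3 that a count of 0 allows, which is not a test. They were 3.94% (95% Wilson interval 1.69 to 8.89%) and 4.48% (2.07 to 9.42%) of the X peaks. The autosomal shares, 7.86% in library 1 and 7.20% in library 2, lie inside these intervals. Of the 5 and 6 wide X peaks, 3 in library 1 and 1 in library 2 overlapped a peak of the other library. That share is not given for the other X peaks, so these counts have no background.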

How the results depend on the processing

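The number of wide peaks, 866.5 on average, was 1457.5 with a minimum of 600 bp, 472.5 with 800 bp and 153.5 with 1000 bp, by construction. The recurrence difference of 25.8 percentage points was 12.8 when at least 50% of a peak had to be covered, 16.5 by midpoint, 4.80 against peaks of 500 to under 700 bp, 24.2 with a minimum of 800 bp and 22.7 with 1000 bp. Settings chosen after seeing the data gave 1.65 against 600 to under 700 bp and 0.14 by midpoint against 500 to under 700 bp. By midpoint against 600 to under 700 bp, also chosen then, the difference turned to -1.91. It was -10.4, again by midpoint and chosen then, for at least 1000 bp against 600 to under 1000 bp. The partner was wider by 214 bp, by 115 bp against 500 to under 700 bp and, added later, by 85.8 bp against 600 to under 700 bp. The neighbour share difference of -5.20 points was -0.77 against 500 to under 700 bp and 0.75 against 600 to under 700 bp, both added later. The difference in peaks within 500 kb, -0.48, was -0.32 within 250 kb and -1.29 within 1000 kb. The middle of the chromosomes exceeded the rest by 1.21 points, and by 0.90 when set against the first and last 10 Mb, where library 1 gave -0.14. The causes of these shifts were not tested. Leaving out library 1 and library 2, in that order, gave 873 and 860 wide peaks, 25.0 and 26.6 points of recurrence, 210.0 and 218.5 bp, -6.62 and -3.78 points, -0.51 and -0.46 peaks, and 0.85 and 1.58 points for the middle; each still used the other list as partner. No paired analysis was possible because the ChIP libraries form a single group with no contrast. The depth of the libraries is unknown.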

Other observations

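The score limit left out 15 autosomal peaks of at least 700 bp in library 1 and 18 in library 2. All of them had a partner, and the partner covered a median of 99.7% of the peak in library 1 and 99.9% in library 2. Over all wide peaks below the limit, the median covered share was 38.1% and 28.4%. That median counts the 348 and 395 wide peaks without a partner as not covered, so it is not the share covered where a partner exists. The widest was on chromosome 17, from 39979901 to 39985869 in library 1 (5969 bp, score 342) and from 39979916 to 39983743 in library 2 (3828 bp, score 126). In library 1, 5 of the 15 lay in the first 0.2 Mb of assembled sequence on chromosome 9, and in library 2, 7 of the 18. Score helped choose this set, so its recurrence is given as a description only.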
